A study of Mus musculus with 9 samples.

Results

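This report covers 39 genes of glycolysis and of the transcriptional response to low oxygen, chosen by name for their function, with earlier results of these data known, and followed through RNAseq libraries of RAW264.7 cells, a mouse macrophage cell line. They take in glucose transporters, the enzymes from hexokinase to lactate dehydrogenase, the lactate carriers, the kinases that switch off pyruvate dehydrogenase, the oxygen sensors and a set of well-known hypoxia-responsive genes. In the count table of 54432 gene identifiers the 39 symbols matched 40 rows, because *Aldoa* has a second, little-used locus. Of these, 39 rows (38 symbols and the second *Aldoa* locus) passed the filter on low counts, among 12637 genes that passed in all. *Egln3* had 0 counts in all 9 libraries and was not tested.

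The cells were left untreated (control) or exposed for 6 h to 1 mM of emulsion particles made from sunflower oil and sodium caseinate, either in the size range of very low density lipoproteins (VLDL-sized) or in the larger range of chylomicrons (CHYL-sized). Each group had 3 libraries, all of the same cell line and labelled with the same exposure time. The question behind the design was how macrophages respond to triglyceride-rich particles and whether particle size alters that response. The study's methods give 3 biological and 3 technical replicates, with cells of a condition pooled within an experiment, and the labels do not say which of these the 3 libraries are, so the p-values below measure the spread between these libraries, which may be partly technical.

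Depth was even, with 22393893 to 22856792 counts per library. The macrophage identity was apparent in every library: all 8 macrophage markers examined (*Adgre1*, *Cd68*, *Csf1r*, *Lyz2*, *Itgam*, *Ptprc*, *Mertk* and *Fcgr1*) passed the filter, and their summed level was 5832 to 5966 cpm in controls, 5379 to 5604 cpm after VLDL-sized and 5501 to 5697 cpm after CHYL-sized particles. Of the fibroblast markers 1 of 5 passed, *Pdgfra*, and the list summed to 1.50 to 2.53 cpm over all libraries. The 4 epithelial markers were at 0 in every library, and none of the 4 T and B cell markers passed. The replicate 3 libraries stood apart within each group. Between replicates 1 and 2 the mean chi-square per gene was 3.42 in control, 4.27 in VLDL-sized and 5.10 in CHYL-sized libraries. Pairs with replicate 3 gave 12.2 to 15.3. Replicates 1 and 2 were thus more alike, and the labels do not say why. In bulk RNA, fewer cells of a kind and less RNA per cell cannot be told apart.

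Glycolysis breaks glucose down to pyruvate in the cytosol. Glucose enters through facilitative transporters, is trapped by hexokinase, is committed to breakdown by phosphofructokinase and leaves as pyruvate made by pyruvate kinase, which lactate dehydrogenase can reduce to lactate. When oxygen is short, prolyl hydroxylases of the EGLN family no longer mark the hypoxia-inducible factor subunit HIF1A for destruction, and the stabilised factor binds a short core sequence near genes of glucose uptake, glycolysis, mitophagy, collagen hydroxylation and vessel growth. Activated macrophages are known to use glycolysis heavily also in ample oxygen.

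After VLDL-sized particles 21 of the 39 tested rows passed the threshold (adjusted p below 0.05 in limma-voom over all genes), 17 higher and 4 lower. That is 53.8% of the rows, in a comparison in which 35.6% of all genes passed. The share that rose was 43.6% against 17.8% of all genes, and the share that fell was 10.3% against 17.9%. After CHYL-sized particles 16 rows passed, 14 higher and 2 lower, which is 41.0% against 25.7% of all genes. Here 35.9% rose and 5.13% fell, against 12.7% and 13.0% of all genes. Since earlier results were known when the genes were chosen, these shares describe the chosen genes and are no test of the pathways. Of the 17 that rose after VLDL-sized particles, *Vegfa* met the filter on low counts only through the VLDL-sized libraries. The median log2 fold change over the rows was 0.13 after VLDL-sized and 0.12 after CHYL-sized particles, while the medians over all genes were -0.00028 and 0.0013.

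All 16 rows that passed after CHYL-sized particles were among the 21 that passed after VLDL-sized particles. Both comparisons use the same control libraries. How far the calls of all genes nest in this way was not counted, so the nesting is not shown to be particular to these rows. The 3 VLDL-sized libraries did not overlap the 3 controls for 22 of the 39 rows, or 56.4%, against 47.4% of all genes. The CHYL-sized libraries did not overlap the controls for 21 rows, or 53.8%, against 41.7% of all genes. In 18 rows neither comparison passed. Without the replicate 3 libraries 26 and 22 of 38 rows passed, among them all 21 and all 16 of the full fit. The calls over all genes grew as well, from 4500 and 3249 of 12637 to 5380 and 4182 of 12386. The gain is thus not particular to these genes, and these fits keep only the replicates that were most alike. Scaled by library size alone, which moved the median of all genes to -0.094 and -0.079, the calls were 15 higher and 5 lower after VLDL-sized and 11 higher and 6 lower after CHYL-sized particles. Of all genes called with that scaling 31.3% and 29.8% were higher, against 49.9% and 49.6% in the full fit.

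**Figure D1:**
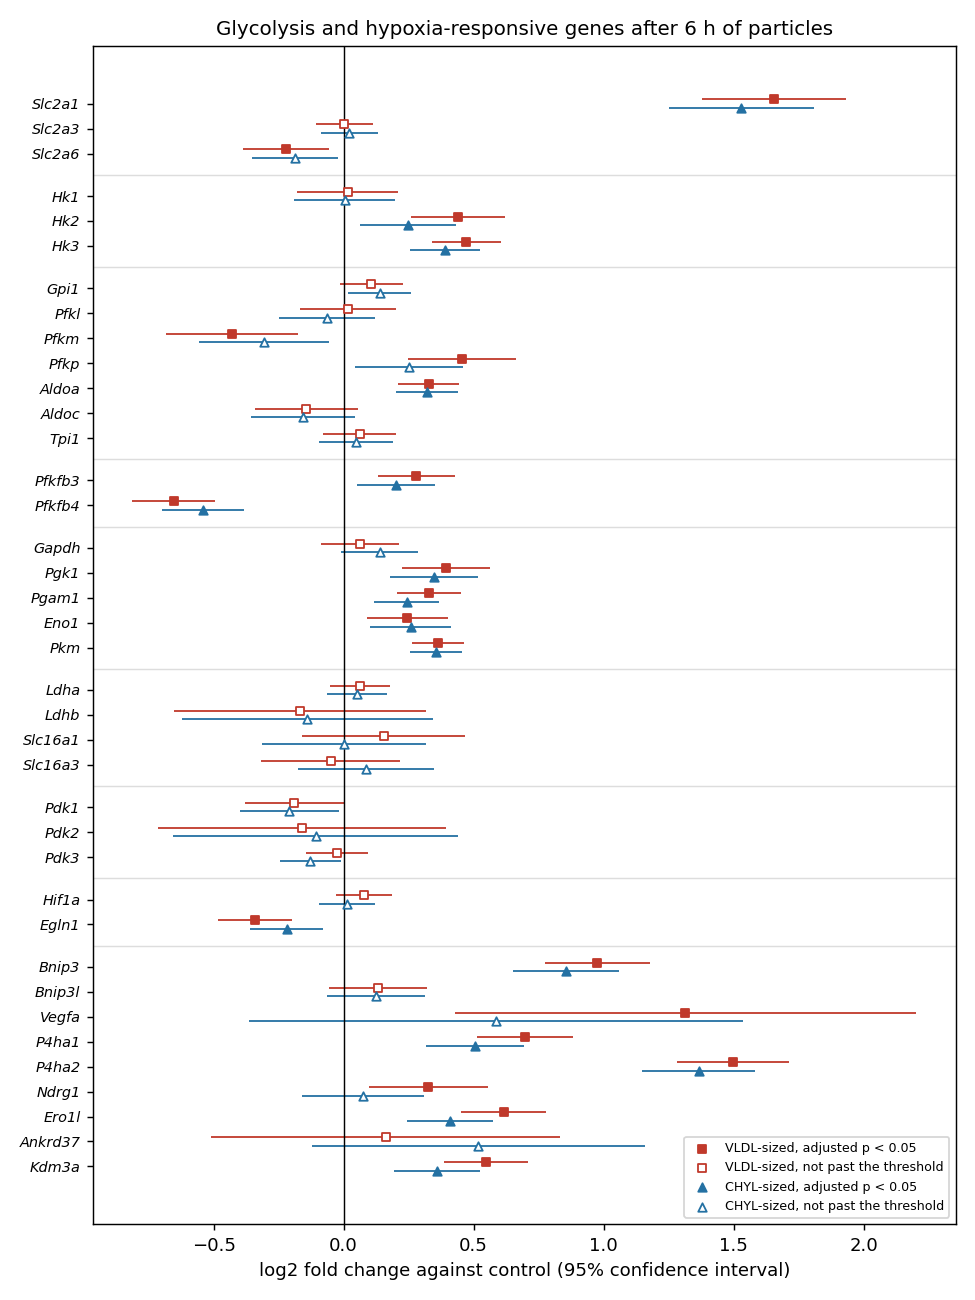
Log2 fold change against control for the 38 tested genes, grouped by role from glucose transporters at the top to other hypoxia-responsive genes at the bottom, with 95% confidence intervals (VLDL-sized as red squares, CHYL-sized as blue triangles, filled where the adjusted p was below 0.05). *Slc2a1* and *P4ha2* lie farthest to the right in both comparisons (1.65 and 1.50 after VLDL-sized particles) and *Pfkfb4* lies farthest to the left (-0.65). No lactate gene or pyruvate dehydrogenase kinase is filled, and all values of the kinases lie below 0.

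The sequence upstream of the start site is shown for the members with the largest changes called in both comparisons, 4 that rose and 2 that fell. A short core that hypoxia-inducible factor can bind is marked where its letters occur. Each is the 250 bases before the RefSeq start site in GRCm38.p6, read 5′ to 3′ on the strand of the gene. Capitals mark the hypoxia core ACGTG, or its reverse complement CACGT, and the antioxidant core TGACNNNGC, or its reverse complement GCNNNGTCA.
*Slc2a1* (chr4:119108495-119108744, plus strand): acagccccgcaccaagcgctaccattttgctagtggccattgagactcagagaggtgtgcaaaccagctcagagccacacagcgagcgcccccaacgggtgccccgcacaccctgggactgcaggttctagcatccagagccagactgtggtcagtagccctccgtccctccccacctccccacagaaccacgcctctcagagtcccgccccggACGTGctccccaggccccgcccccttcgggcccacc
*P4ha2* (chr11:54100674-54100923, plus strand): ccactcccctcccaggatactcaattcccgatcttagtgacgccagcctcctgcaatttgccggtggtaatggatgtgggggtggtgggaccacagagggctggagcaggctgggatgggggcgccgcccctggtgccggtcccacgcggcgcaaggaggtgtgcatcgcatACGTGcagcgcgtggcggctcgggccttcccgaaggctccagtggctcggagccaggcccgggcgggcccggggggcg
*Bnip3* (chr7:138909507-138909756, minus strand): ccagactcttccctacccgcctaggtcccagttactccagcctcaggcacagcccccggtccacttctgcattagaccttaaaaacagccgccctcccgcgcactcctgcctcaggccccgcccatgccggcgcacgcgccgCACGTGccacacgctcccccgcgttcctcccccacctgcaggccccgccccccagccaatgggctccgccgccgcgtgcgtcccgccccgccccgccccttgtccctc
*P4ha1* (chr10:59323046-59323295, plus strand): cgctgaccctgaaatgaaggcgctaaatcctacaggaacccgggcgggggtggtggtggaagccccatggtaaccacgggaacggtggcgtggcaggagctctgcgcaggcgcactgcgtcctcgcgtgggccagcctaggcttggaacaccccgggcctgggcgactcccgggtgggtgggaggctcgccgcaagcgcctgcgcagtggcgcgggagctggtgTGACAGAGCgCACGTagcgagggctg
*Pfkfb4* (chr9:108991652-108991901, plus strand): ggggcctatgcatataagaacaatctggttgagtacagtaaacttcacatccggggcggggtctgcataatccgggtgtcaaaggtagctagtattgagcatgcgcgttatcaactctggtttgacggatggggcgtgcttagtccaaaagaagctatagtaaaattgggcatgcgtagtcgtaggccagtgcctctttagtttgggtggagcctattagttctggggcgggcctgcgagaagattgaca
*Egln1* (chr8:124949255-124949504, minus strand): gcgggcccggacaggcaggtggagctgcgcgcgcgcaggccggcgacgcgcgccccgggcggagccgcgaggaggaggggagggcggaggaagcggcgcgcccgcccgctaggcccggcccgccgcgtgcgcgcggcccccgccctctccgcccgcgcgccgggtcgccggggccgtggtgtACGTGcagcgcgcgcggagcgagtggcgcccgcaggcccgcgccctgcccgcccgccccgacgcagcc

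The hypoxia core began 36 bases before the start of *Slc2a1*, 78 before that of *P4ha2*, 16 before that of *P4ha1* and 68 before that of *Egln1*. In *Bnip3* the core and its reverse complement overlap in a palindrome that begins 108 bases before the start. In *P4ha1* an antioxidant core began 26 bases before the start. The window of *Pfkfb4* held neither of the cores in the exact letters searched. It does hold GCGTG, which differs from ACGTG in its first base and was not counted in any window. The values for the hypoxia core thus cover the ACGTG form alone, and a window without that form cannot be said to lack a hypoxia core. RefSeq windows were found for 36 of the 39 symbols, with none for *Slc2a3*, *Bnip3l* and *Ndrg1*, and several genes had more than 1 start, giving 53 windows. Of these, 26 held the hypoxia core (49.1%), against 16.6% of all 32851 mouse windows and 22.8% of the 7400 windows at least as rich in G and C as the median window of these genes (62.4%). At least 1 window held it in 13 of the 16 genes that rose after VLDL-sized particles, 2 of the 4 that fell and 7 of the 15 that did not pass. The antioxidant core was in 4 of the 53 windows (7.55%), against 10.2% of all windows. These matches describe the letters in the window and do not show that a factor was bound, or which factor could bind there. Many of the genes were chosen as known responders to low oxygen. A share of the hypoxia core above that of all windows may follow from this choice and is no test. Windows of the same gene can overlap and share a site, as in *Aldoa*, and the split by call was not tested.

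The glucose transporter *Slc2a1*, which encodes GLUT1, had the largest rise of all members in both comparisons. Its level was 69.2, 72.8 and 92.99 cpm in the control libraries, 239.8, 222 and 275 cpm in the VLDL-sized libraries and 205, 212 and 259.7 cpm in the CHYL-sized libraries. Every particle-treated library lay far above every control library, although the control replicate 3 was higher than its fellows. On the log2 scale the VLDL-sized rise was 1.65 ± 0.13 (SE, adjusted p = 5.54e-06), or 3.15-fold, and the CHYL-sized rise was 1.53 ± 0.13 (SE, adjusted p = 1.48e-05), or 2.89-fold.

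The other transporters gave different values. *Slc2a3*, which encodes the high-affinity transporter GLUT3, ranged over 96.9 to 107 cpm in the 9 libraries, with log2 fold changes of 0.0028 (95% confidence interval -0.11 to 0.11) and 0.022 (-0.088 to 0.13). *Slc2a6*, which encodes GLUT6, a transporter found on lysosomes of macrophages, fell slightly after VLDL-sized particles. Its level was 116, 115 and 138 cpm in the control libraries, 101, 101 and 113 cpm in the VLDL-sized libraries and 106, 109 and 108 cpm in the CHYL-sized libraries. The fall was called after VLDL-sized particles, -0.22 ± 0.075 (SE, adjusted p = 0.0411), and missed the threshold after CHYL-sized particles, -0.19 ± 0.075 (SE, adjusted p = 0.0947). The gap rests in part on control replicate 3, without which the VLDL-sized difference was -0.14 and its adjusted p 0.109. The call was lost in 7 of 19 alternative fits.

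Scaled to length, the makeup of the transporter transcripts differed between control and treated libraries. *Slc2a1* made up 29.9% ± 1.91 (SD, n = 3) of the summed level per kb of *Slc2a1*, *Slc2a3* and *Slc2a6* in controls, 59.9% ± 1.56 after VLDL-sized and 57.3% ± 3.33 after CHYL-sized particles. *Slc2a6* led in controls with 51.4% ± 0.487 and held 28.1% ± 0.763 and 30.02% ± 1.91 after the particles. The shares of both did not overlap between control and treated libraries. For every isoenzyme share the test was a two-sided exact permutation test over libraries, in which 3 against 3 cannot give a p below 0.10, and over the 24 shares tested the smallest adjusted values were 0.16 for VLDL-sized and 0.171 for CHYL-sized particles, the values reached here.

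Hexokinases trap glucose in the cell by phosphorylating it. *Hk3*, the hexokinase typical of myeloid cells, and *Hk2*, the inducible form that binds mitochondria, rose, whereas *Hk1*, the constitutive form, did not pass. The level of *Hk3* was 116, 119.9 and 111 cpm in the control libraries, 164, 166 and 151 cpm in the VLDL-sized libraries and 148, 162 and 144 cpm in the CHYL-sized libraries. All treated libraries exceeded all controls, and the log2 fold change was 0.47 ± 0.060 (SE, adjusted p = 1.73e-04) after VLDL-sized and 0.39 ± 0.060 (SE, adjusted p = 9.54e-04) after CHYL-sized particles. For *Hk2* the libraries gave 42.4, 42.1 and 40.8 cpm in the control libraries, 49.6, 58.4 and 62.9 cpm in the VLDL-sized libraries and 52.01, 48.2 and 48.7 cpm in the CHYL-sized libraries. The controls were tight and below every treated library. The rise was 0.44 ± 0.082 (SE, adjusted p = 0.00184) after VLDL-sized particles. After CHYL-sized particles it was 0.25 ± 0.083 (SE), with an adjusted p of 0.0497 just inside the threshold, a call lost in 9 of 19 alternative fits (highest adjusted p = 0.167). *Hk1* ranged over 132 to 173 cpm, with log2 fold changes of 0.015 (-0.18 to 0.21) and 0.0044 (-0.19 to 0.20).

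Per kb of exons, *Hk3* was the most abundant of the hexokinase transcripts, at 55.5% ± 1.73 of their sum in controls, 60.95% ± 1.47 after VLDL-sized and 60.8% ± 1.44 after CHYL-sized particles. The share of *Hk1* went from 32.1% ± 2.33 to 25.7% ± 0.391 and 26.9% ± 0.690. The lead of *Hk3* in controls depends on the length used: divided by the longest transcript instead, *Hk3* and *Hk1* stood at 45.1% and 45.4%, and without division *Hk1* led with 49.6%. The mean share of *Hk3* was higher in both treated groups than in controls on all these scales.

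Upper glycolysis carries the phosphorylated sugar to triose phosphates. Of its 7 genes and the second *Aldoa* locus, 2 rose, 1 fell and 5 did not pass after VLDL-sized particles, and 1 rose and 7 did not pass after CHYL-sized particles. Thus 37.5% and 12.5% passed, against 35.6% and 25.7% of all genes. *Aldoa*, the main aldolase, was at 1348, 1338 and 1417 cpm in the control libraries, 1660.0, 1658 and 1830.0 cpm in the VLDL-sized libraries and 1639, 1730.0 and 1759.8 cpm in the CHYL-sized libraries. The treated libraries all lay above the controls, by a log2 fold change of 0.33 ± 0.054 (SE, adjusted p = 8.62e-04) and 0.32 ± 0.054 (SE, adjusted p = 0.00150). The second *Aldoa* locus held 4 to 17 counts per library and did not pass.

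The 3 phosphofructokinase genes, whose products form the committing enzyme, gave different values. *Pfkp*, the platelet form, was at 136, 141 and 168 cpm in the control libraries, 198, 194 and 216 cpm in the VLDL-sized libraries and 164, 166 and 199.6 cpm in the CHYL-sized libraries. VLDL-sized libraries were all above the controls, but 2 of the CHYL-sized libraries lay below control replicate 3. The difference was 0.45 ± 0.094 (SE, adjusted p = 0.00348) after VLDL-sized particles and, short of the threshold, 0.25 ± 0.094 (SE, adjusted p = 0.0747) after CHYL-sized particles. Replicate 3 of *Pfkp* was the highest in each group. With the replicate number as a block its CHYL-sized difference passed in limma-voom (adjusted p = 5.38e-04). *Pfkm*, the muscle form, went the other way, with 17.8, 16.7 and 15.3 cpm in the control libraries, 13.1, 12.1 and 11.6 cpm in the VLDL-sized libraries and 14.6, 14.8 and 11.1 cpm in the CHYL-sized libraries. All treated libraries lay below all controls. The difference was -0.43 ± 0.12 (SE, adjusted p = 0.0143) after VLDL-sized particles (adjusted p = 0.0567 without control replicate 1), and the CHYL-sized value of -0.31 ± 0.11 (SE, adjusted p = 0.0723) missed the threshold. The liver form *Pfkl* ranged over 50.2 to 62.7 cpm, with log2 fold changes of 0.018 and -0.064. Exons of *Pfkp* overlap *Pitrm1* and those of *Pfkm* overlap *Senp1* on the opposite strand, both expressed here, and strandedness of the libraries was not given in the sources used here, so some reads at these loci may be wrongly assigned.

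By length, *Pfkp* held 44.7% ± 3.84 of the phosphofructokinase transcripts in controls, 54.8% ± 3.22 after VLDL-sized and 51.6% ± 5.53 after CHYL-sized particles. *Pfkm* went from 20.1% ± 2.06 to 13.3% ± 0.669 and 15.8% ± 2.51.

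*Gpi1*, the isomerase after hexokinase, gave 732 ± 33.1 cpm in controls, 787 ± 26.9 cpm after VLDL-sized and 806 ± 42.2 cpm after CHYL-sized particles (SD, n = 3), with differences of 0.11 ± 0.055 (SE, adjusted p = 0.161) and 0.14 ± 0.055 (SE, adjusted p = 0.0886). With the replicate number as a block, the VLDL-sized difference of *Gpi1* passed (adjusted p = 0.0290). *Aldoc*, the brain-type aldolase, gave 98.6 ± 11.3 cpm in controls, 88.9 ± 3.78 cpm after VLDL-sized and 88.3 ± 8.25 cpm after CHYL-sized particles, with differences of -0.14 ± 0.090 (SE, adjusted p = 0.248) and -0.16 ± 0.090 (SE, adjusted p = 0.238), and its VLDL-sized difference also passed with the block (adjusted p = 0.0338). The triose phosphate isomerase *Tpi1* lay at 828 to 966 cpm, with log2 fold changes of 0.062 (-0.079 to 0.20) and 0.048 (-0.093 to 0.19).

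Phosphofructokinase is strongly activated by a sugar bisphosphate that the bifunctional PFKFB enzymes both make and break down. Both genes measured passed in both comparisons, in opposite directions. *Pfkfb4* was at 24.01, 25.6 and 23.9 cpm in the control libraries, 16.1, 15.2 and 15.4 cpm in the VLDL-sized libraries and 17.8, 17.1 and 15.6 cpm in the CHYL-sized libraries. The treated libraries were tightly grouped well below the controls, and the difference was -0.65 ± 0.072 (SE, adjusted p = 6.33e-05) after VLDL-sized and -0.54 ± 0.071 (SE, adjusted p = 3.21e-04) after CHYL-sized particles. *Pfkfb3*, the form with the strongest kinase activity, was at 22.6, 23.6 and 25.7 cpm in the control libraries, 30.2, 27.99 and 28.98 cpm in the VLDL-sized libraries and 26.8, 28.2 and 27.5 cpm in the CHYL-sized libraries. Its treated libraries were all above the controls, though the gap to control replicate 3 was narrow. The rise was 0.28 ± 0.067 (SE, adjusted p = 0.00762) after VLDL-sized particles. After CHYL-sized particles it was 0.20 ± 0.067 (SE), with an adjusted p of 0.0492 a call lost in 12 of 19 alternative fits (highest adjusted p = 0.192). *Pfkfb3* made up 38.6% ± 1.96 of the pair per kb in controls, 54.6% ± 0.331 after VLDL-sized and 51.3% ± 1.89 after CHYL-sized particles, with no overlap between treated and control libraries. Per kb of merged exons, *Pfkfb4* was the more abundant in every control library and *Pfkfb3* in every treated library except CHYL-sized replicate 1, where its share was 49.4%. This order depends on the length used. Without division *Pfkfb3* had a mean share of 49.4% in controls and led in control replicate 3. Its mean share was higher in both treated groups than in controls with merged exons, the longest transcript or no division.

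Lower glycolysis, which yields ATP and pyruvate, had 4 of its 5 genes called higher in both comparisons and none lower. That is 80.0% in each comparison, where 17.8% of all genes rose after VLDL-sized and 12.7% after CHYL-sized particles. *Pkm*, the pyruvate kinase of macrophages, was at 3053, 3222 and 3262 cpm in the control libraries, 4139.7, 4044 and 4082 cpm in the VLDL-sized libraries and 3953, 4179 and 4068 cpm in the CHYL-sized libraries. No treated library came near the controls, and the rise was 0.36 ± 0.045 (SE, adjusted p = 1.30e-04) after VLDL-sized and 0.36 ± 0.045 (SE, adjusted p = 2.48e-04) after CHYL-sized particles. *Pgk1*, the phosphoglycerate kinase of an ATP-forming step, was at 1065, 1114 and 1219 cpm in the control libraries, 1384, 1440.2 and 1648 cpm in the VLDL-sized libraries and 1370.3, 1420.2 and 1534 cpm in the CHYL-sized libraries. The treated libraries were all higher, with replicate 3 the highest in each group. The log2 fold changes were 0.39 ± 0.076 (SE, adjusted p = 0.00229) and 0.35 ± 0.076 (SE, adjusted p = 0.00690).

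*Pgam1*, the phosphoglycerate mutase, was at 745, 742 and 794 cpm in the control libraries, 938, 928 and 999 cpm in the VLDL-sized libraries and 843, 912 and 945 cpm in the CHYL-sized libraries. Treated and control libraries did not overlap, and the differences were 0.33 ± 0.056 (SE, adjusted p = 0.00105) and 0.24 ± 0.056 (SE, adjusted p = 0.00916). *Eno1*, the enolase, was at 393, 396 and 431 cpm in the control libraries, 460.5, 459.7 and 528 cpm in the VLDL-sized libraries and 451, 507 and 503 cpm in the CHYL-sized libraries. The treated libraries were all above the controls, by 0.25 ± 0.070 (SE, adjusted p = 0.0194) and 0.26 ± 0.070 (SE, adjusted p = 0.0205). The call of *Eno1* was lost in 4 of 19 alternative fits for VLDL-sized particles, among them those without control replicate 1 or 2 or VLDL-sized replicate 3, and in 5 for CHYL-sized particles. Its close copy *Eno1b* was counted at 339 to 389.8 cpm in controls and 403 to 500.3 cpm in treated libraries, so reads may be split between the pair. The sum of the pair was 771 ± 44.8 cpm in controls, 923 ± 91.6 cpm after VLDL-sized and 924 ± 58.6 cpm after CHYL-sized particles (SD, n = 3).

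*Gapdh*, which oxidises triose phosphate and is often used as a reference gene, was at 1342, 1289 and 1344 cpm in the control libraries, 1492, 1427 and 1245 cpm in the VLDL-sized libraries and 1389, 1523 and 1469 cpm in the CHYL-sized libraries. The VLDL-sized libraries spanned the controls, while the CHYL-sized libraries lay just above them. Neither difference passed, at 0.063 ± 0.067 (SE, adjusted p = 0.502) and 0.14 ± 0.067 (SE, adjusted p = 0.157). Exons of *Pkm* overlap a transcript model of unknown type on the same strand, and those of *Gapdh* and *Tpi1* overlap expressed genes on the opposite strand, so their counts carry some uncertainty of assignment.

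None of the 4 lactate genes passed in either comparison, against 35.6% of all genes after VLDL-sized and 25.7% after CHYL-sized particles. *Ldha*, the main lactate dehydrogenase, was at 810.3, 809.5 and 802 cpm in the control libraries, 829, 864 and 837 cpm in the VLDL-sized libraries and 787, 899 and 829 cpm in the CHYL-sized libraries. The levels lay close together in all groups, with log2 fold changes of 0.063 (-0.053 to 0.18) and 0.052 (-0.064 to 0.17). *Ldhb*, the heart-type subunit, was nearly silent at 1.11 to 1.64 cpm, and *Ldha* held 99.6% ± 0.0714 of the pair per kb in controls. The lactate carrier *Slc16a1*, which encodes MCT1, gave 71.3 ± 11.4 cpm in controls, 79.6 ± 14.7 cpm after VLDL-sized and 71.2 ± 9.05 cpm after CHYL-sized particles (SD, n = 3), with differences of 0.15 ± 0.14 (SE, adjusted p = 0.439) and 0.0020 ± 0.14 (SE, adjusted p = 0.995). In each group *Slc16a1* was highest in replicate 3, and with the replicate number as a block its VLDL-sized difference passed (adjusted p = 0.0124). The exporter *Slc16a3*, which encodes MCT4, ranged over 3.38 to 4.01 cpm, and its intervals of -0.32 to 0.22 and -0.18 to 0.35 include 0.

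**Figure D2:**
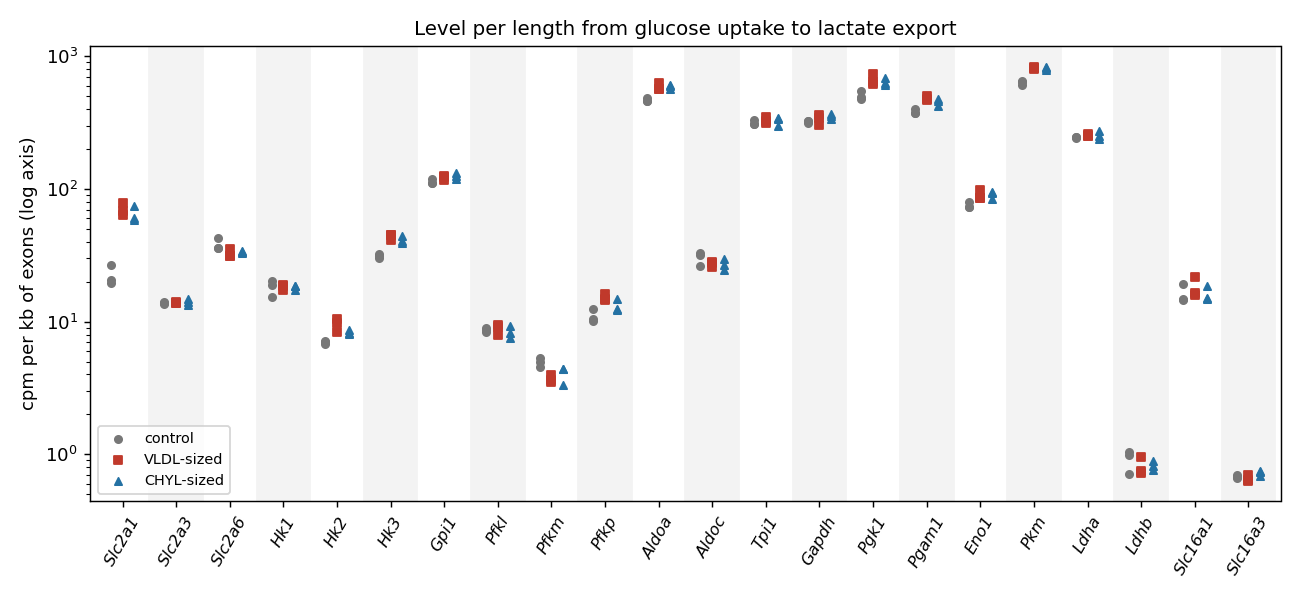
Level per length (cpm per kb of exons, log axis) of the genes from glucose uptake to lactate export, with 1 point per library (grey circles control, red squares VLDL-sized, blue triangles CHYL-sized). *Slc2a1* separates most between groups, at 22.3 cpm per kb in controls and 69.98 after VLDL-sized particles, and *Aldoa*, *Tpi1*, *Gapdh*, *Pgk1*, *Pgam1*, *Pkm* and *Ldha* lie above every transporter and phosphofructokinase.

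Per kb of exons, the levels along the pathway spanned a wide range. In controls *Pkm* was the highest at 636 cpm per kb, followed by *Pgk1* at 505, *Aldoa* at 469.7, *Pgam1* at 384, *Gapdh* at 321, *Tpi1* at 316 and *Ldha* at 244. The phosphofructokinases were far lower, with *Pfkp* at 11.1 and *Pfkl* at 8.68. The 17 enzyme genes from *Hk1* to *Ldhb* together took 1.15, 1.17 and 1.18% of all counts in the control libraries, 1.30, 1.30 and 1.32% after VLDL-sized particles and 1.26, 1.34 and 1.32% after CHYL-sized particles. The groups of treated libraries did not overlap the controls in this sum, to which *Pkm*, *Aldoa*, *Gapdh* and *Pgk1* contributed most.

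Pyruvate dehydrogenase kinases inactivate the complex that passes pyruvate into the mitochondrial citrate cycle, and *Pdk1* is a classical target of hypoxia-inducible factor. None of the 3 measured was called, against 35.6% of all genes after VLDL-sized and 25.7% after CHYL-sized particles. *Pdk1* was at 25.8, 28.9 and 26.2 cpm in the control libraries, 21.6, 23.5 and 26.03 cpm in the VLDL-sized libraries and 22.3, 22.5 and 25.3 cpm in the CHYL-sized libraries. The VLDL-sized libraries overlapped the controls at their upper end and the CHYL-sized libraries lay just below the controls. The differences were -0.19 ± 0.086 (SE, adjusted p = 0.114) and -0.21 ± 0.086 (SE, adjusted p = 0.104), and with the replicate number as a block the VLDL-sized fall passed narrowly (adjusted p = 0.0450). *Pdk3*, the most abundant of the kinases by length (79.6% ± 2.72 of their sum in controls), gave 49.9 ± 2.70 cpm in controls, 49.01 ± 0.314 cpm after VLDL-sized and 45.7 ± 0.755 cpm after CHYL-sized particles (SD, n = 3), with differences of -0.026 ± 0.053 (SE, adjusted p = 0.748) and -0.13 ± 0.054 (SE, adjusted p = 0.112). *Pdk2* was low, at 3.05 to 5.60 cpm, with wide intervals of -0.71 to 0.39 and -0.66 to 0.44.

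Among the oxygen sensing genes, the transcript of *Hif1a*, the oxygen-regulated subunit, was at 83.4, 84.8 and 83.00 cpm in the control libraries, 84.98, 93.2 and 87.5 cpm in the VLDL-sized libraries and 82.7, 86.3 and 84.3 cpm in the CHYL-sized libraries. The VLDL-sized libraries were only just above the controls and the CHYL-sized libraries overlapped them. The differences were 0.080 ± 0.049 (SE, adjusted p = 0.231) and 0.012 ± 0.049 (SE, adjusted p = 0.888). The factor is regulated mainly through protein stability, which these data do not measure. *Egln1*, which encodes the main prolyl hydroxylase PHD2, was at 54.1, 54.02 and 51.6 cpm in the control libraries, 44.3, 43.3 and 38.9 cpm in the VLDL-sized libraries and 48.4, 45.2 and 43.7 cpm in the CHYL-sized libraries. All treated libraries were below all controls. The difference was -0.34 ± 0.064 (SE, adjusted p = 0.00209) after VLDL-sized particles and -0.22 ± 0.064 (SE, adjusted p = 0.0281) after CHYL-sized particles, the latter call lost in 5 of 19 alternative fits (highest adjusted p = 0.0939). *Egln1* is itself usually induced by hypoxia-inducible factor, as is *Egln3*, for which a count of 0 in a library allows up to 3 counts, or 0.131 to 0.134 cpm (counting error only).

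The group of other hypoxia-responsive genes held most of the large rises. Of its 9 genes 7 rose after VLDL-sized and 5 after CHYL-sized particles, and none fell. That is 77.8% and 55.6%, where 17.8% and 12.7% of all genes rose. The 7 include *Vegfa*, which met the filter on low counts only through the VLDL-sized libraries. The median log2 fold change was 0.62 and 0.51.

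*P4ha2* and *P4ha1* encode the catalytic subunits of collagen prolyl hydroxylase. *P4ha2* was at 15.6, 15.6 and 17.8 cpm in the control libraries, 43.9, 43.8 and 51.01 cpm in the VLDL-sized libraries and 39.7, 40.5 and 46.3 cpm in the CHYL-sized libraries. The treated libraries lay far above the highest control, with replicate 3 the highest in each group. The rise was 2.83-fold after VLDL-sized particles, 1.50 ± 0.10 (SE, adjusted p = 1.97e-06), and 2.58-fold after CHYL-sized particles, 1.37 ± 0.10 (SE, adjusted p = 6.05e-06). *P4ha1* was at 47.1, 45.7 and 41.8 cpm in the control libraries, 72.7, 80.2 and 65.9 cpm in the VLDL-sized libraries and 65.1, 67.3 and 58.8 cpm in the CHYL-sized libraries. Here too no treated library overlapped the controls, with rises of 0.70 ± 0.084 (SE, adjusted p = 1.11e-04) and 0.51 ± 0.084 (SE, adjusted p = 0.00151). Per kb *P4ha2* went from 19.4% ± 2.20 of the pair to 29.6% ± 3.79 and 30.4% ± 3.28, without overlap.

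*Bnip3*, a mitochondrial protein that acts as a receptor for mitophagy, was at 22.1, 24.5 and 19.5 cpm in the control libraries, 46.7, 41.9 and 41.03 cpm in the VLDL-sized libraries and 37.7, 42.5 and 39.1 cpm in the CHYL-sized libraries. Each treated library exceeded each control by a wide margin. The rise was 1.97-fold after VLDL-sized particles, 0.98 ± 0.091 (SE, adjusted p = 2.11e-05), and 1.81-fold after CHYL-sized particles, 0.85 ± 0.092 (SE, adjusted p = 9.34e-05). Its relative *Bnip3l*, also called NIX, gave 76.6 ± 8.06 cpm in controls, 83.7 ± 6.18 cpm after VLDL-sized and 83.3 ± 5.38 cpm after CHYL-sized particles (SD, n = 3), and its differences of 0.13 ± 0.085 (SE, adjusted p = 0.264) and 0.12 ± 0.085 (SE, adjusted p = 0.322) did not pass. *Bnip3* went from 32.9% ± 1.67 to 46.8% ± 2.59 and 44.9% ± 2.30 of the pair per kb.

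*Ero1l*, the oxidase that drives disulfide formation in the endoplasmic reticulum, was at 71.95, 71.4 and 83.9 cpm in the control libraries, 117, 110.0 and 121 cpm in the VLDL-sized libraries and 97.6, 95.9 and 108 cpm in the CHYL-sized libraries. The 3 groups did not overlap, with the VLDL-sized libraries highest. The rise was 0.62 ± 0.074 (SE, adjusted p = 1.11e-04) after VLDL-sized and 0.41 ± 0.074 (SE, adjusted p = 0.00240) after CHYL-sized particles. *Kdm3a*, a histone demethylase, was at 41.2, 38.9 and 35.1 cpm in the control libraries, 57.9, 56.9 and 53.4 cpm in the VLDL-sized libraries and 51.4, 50.8 and 45.4 cpm in the CHYL-sized libraries. It too was ordered control, CHYL-sized, VLDL-sized without overlap, with rises of 0.55 ± 0.074 (SE, adjusted p = 2.36e-04) and 0.36 ± 0.075 (SE, adjusted p = 0.00528).

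*Ndrg1*, a stress-responsive gene of differentiation and iron handling, was at 27.1, 30.04 and 26.4 cpm in the control libraries, 37.3, 38.4 and 29.6 cpm in the VLDL-sized libraries and 26.9, 30.96 and 30.2 cpm in the CHYL-sized libraries. VLDL-sized replicate 3 fell within the range of the controls, as did CHYL-sized replicate 1. The rise after VLDL-sized particles was 0.33 ± 0.10 (SE, adjusted p = 0.0313), a call lost in 6 of 19 alternative fits (highest adjusted p = 0.121). The CHYL-sized value was 0.076 ± 0.11 (SE, adjusted p = 0.651). *Vegfa*, the vascular growth factor, was barely expressed, at 0.168, 0.464 and 0.300 cpm in the control libraries, 0.867, 0.584 and 0.819 cpm in the VLDL-sized libraries and 0.310, 0.405 and 0.684 cpm in the CHYL-sized libraries, from 4 to 19 counts per library. The VLDL-sized libraries were above the controls and the CHYL-sized libraries overlapped them. The rise after VLDL-sized particles was 1.31 ± 0.40 (SE, adjusted p = 0.0262), a call lost in 6 of 18 alternative fits, DESeq2 among them (highest adjusted p = 0.110), and the CHYL-sized value was 0.59 ± 0.43 (SE, adjusted p = 0.357). *Vegfa* met the filter on low counts only through the VLDL-sized libraries, where it was highest (19, 13 and 18 counts). Its call there is therefore no independent evidence of a rise. *Ankrd37* was also low, at 0.967 to 2.21 cpm, with intervals of -0.51 to 0.83 and -0.12 to 1.16 and an overlapping, well-expressed gene, *Ufsp2*, on the opposite strand.

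**Figure D3:**
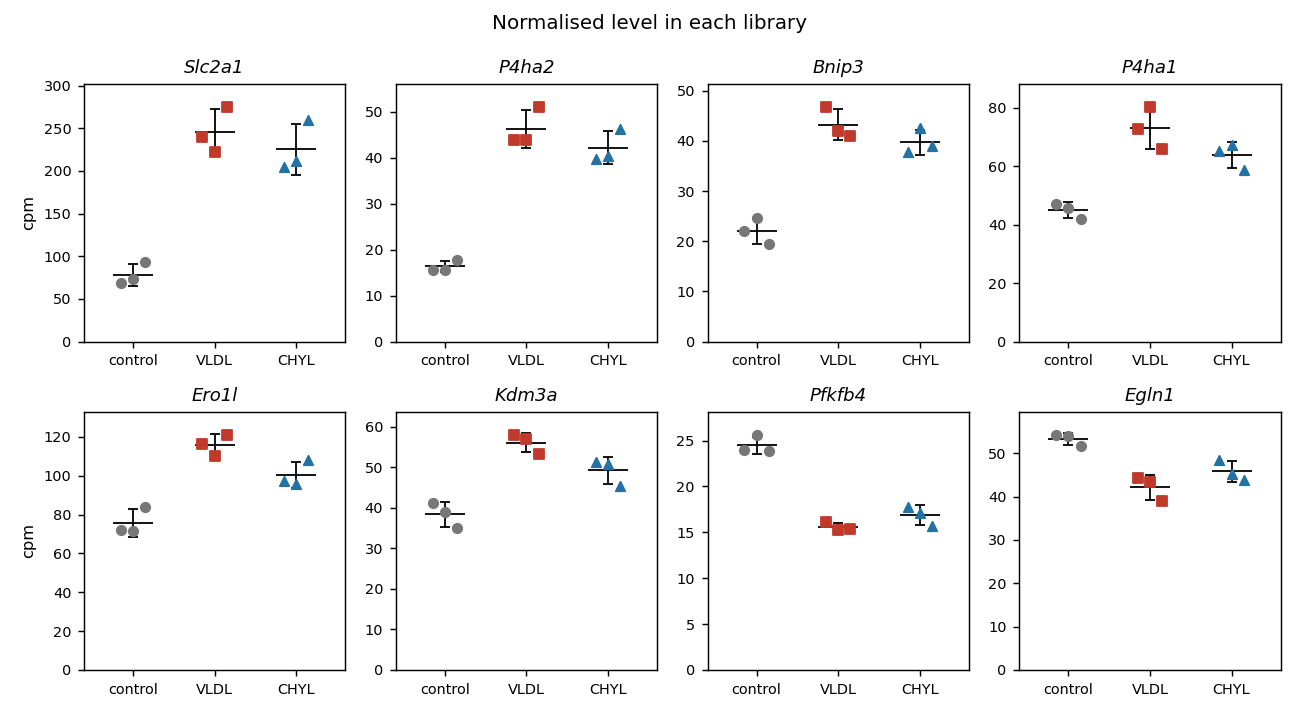
Normalised level in cpm (linear axis from 0) of 8 genes in each library, with the group mean and SD (n = 3) in black. In *Slc2a1*, *P4ha2*, *Bnip3*, *P4ha1*, *Ero1l* and *Kdm3a* every treated library lies above every control, and in *Pfkfb4* and *Egln1* every treated library lies below.

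**Figure D4:**
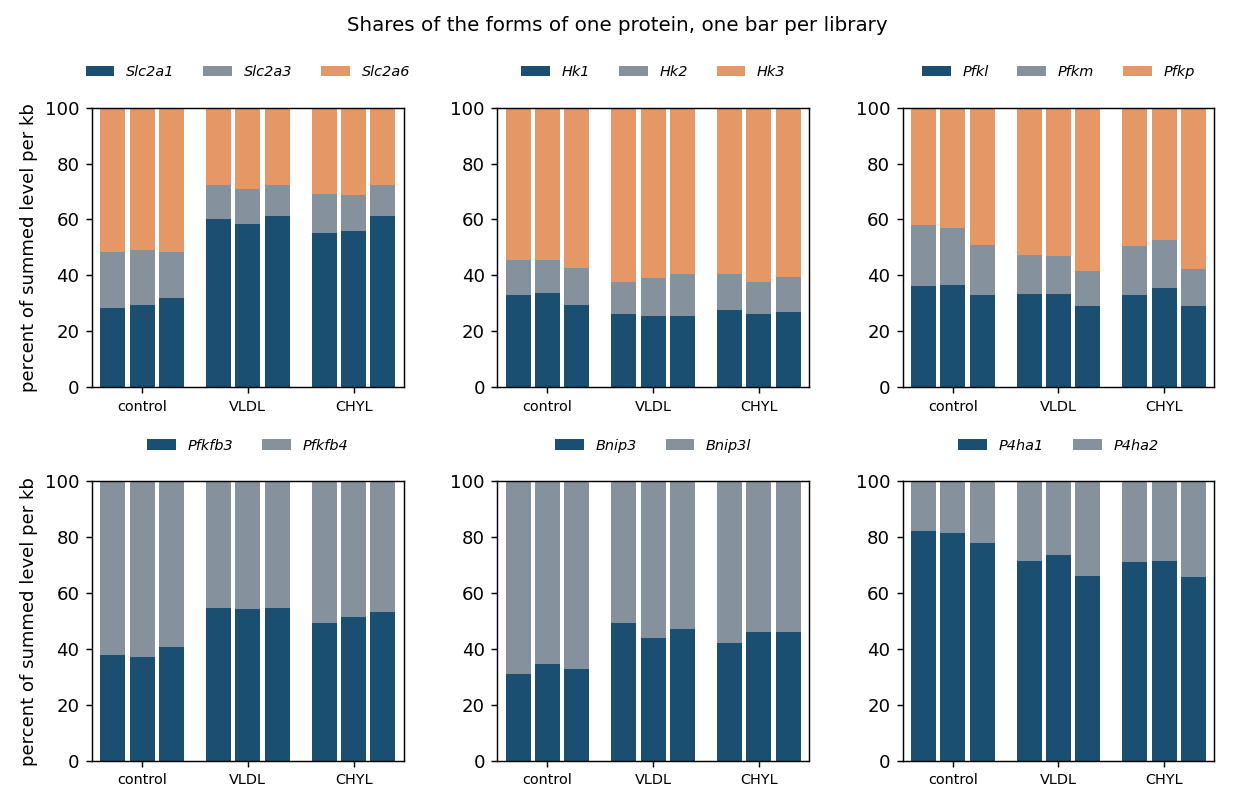
Percent of the summed level per kb held by each form within 6 families, with 1 stacked bar per library in groups of 3. *Slc2a1* grows from 29.9% ± 1.91 to 59.9% ± 1.56 of the glucose transporters after VLDL-sized particles and *Bnip3* from 32.9% ± 1.67 to 46.8% ± 2.59 of its pair.

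Particle size was tested directly by setting the VLDL-sized against the CHYL-sized libraries. No member passed in limma-voom, and none of all genes did (0.0%). At an unadjusted p below 0.05 the count was 5 of 39 members and 813 of 12637 genes, while edgeR called 0 members and 0 genes and DESeq2 0 members and 24 genes. Without the 3 replicate 3 libraries limma-voom called 257 of 12386 genes, among them 3 members. The median log2 difference of the members was 0.014, against -0.0012 over all genes. The groups did not overlap in 3 of 39 rows, or 7.69%, against 11.3% of all genes.

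The 5 members with an unadjusted p below 0.05 were all higher after VLDL-sized particles. They were *Ero1l*, with a log2 difference of 0.21 (95% confidence interval 0.046 to 0.37), *Kdm3a* with 0.19 (0.030 to 0.35), *Ndrg1* with 0.25 (0.021 to 0.48), *P4ha1* with 0.19 (0.013 to 0.37) and *Hk2* with 0.19 (0.013 to 0.37). Their adjusted p-values were 0.665 to 0.754. The genes with the largest rises against control gave 0.12 (-0.14 to 0.39) for *Slc2a1*, 0.13 (-0.051 to 0.32) for *P4ha2* and 0.12 (-0.065 to 0.31) for *Bnip3*. The interval of *Pkm* was narrow, at -0.090 to 0.11 around 0.0082, and that of *Vegfa* was wide, at -0.10 to 1.56. Sizes within these intervals are not resolved by 3 libraries per group.

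The other genes of both pathways were examined from lists of known function. Of the other glycolysis, gluconeogenesis and pyruvate genes 18 of 28 were tested, of which 5 rose and 2 fell after VLDL-sized particles and 4 rose and 1 fell after CHYL-sized particles, with median log2 fold changes of 0.036 and 0.068. That is 38.9% and 27.8% of those tested, near the 35.6% and 25.7% of all genes. Of the other hypoxia-pathway genes 23 of 35 were tested, of which 9 rose and 3 fell after VLDL-sized and 7 rose and 3 fell after CHYL-sized particles, with medians of 0.17 and 0.11. That is 52.2% and 43.5% of those tested. Among both lists 10 genes passed in both comparisons with a log2 fold change beyond 0.5 in size, 7 higher and 3 lower, of which 9 are described here. The share of all genes that meets this combined rule was not counted. The rule thus only selects genes to name, and the 10 are no result about the lists.

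*Gbe1*, the branching enzyme of glycogen synthesis, was at 15.5, 15.8 and 14.7 cpm in the control libraries, 55.2, 55.6 and 52.1 cpm in the VLDL-sized libraries and 46.5, 46.1 and 44.6 cpm in the CHYL-sized libraries. It was ordered control, CHYL-sized, VLDL-sized without overlap and with tight replicates, with rises of 1.82 ± 0.062 (SE, adjusted p = 1.97e-08) and 1.58 ± 0.063 (SE, adjusted p = 8.41e-08). *Hilpda*, a lipid droplet protein that inhibits triglyceride lipase and is induced by both hypoxia and fatty acids, was at 5.38, 6.19 and 6.77 cpm in the control libraries, 18.1, 16.4 and 20.3 cpm in the VLDL-sized libraries and 13.2, 13.1 and 16.7 cpm in the CHYL-sized libraries. All treated libraries were well above the controls, with rises of 1.58 ± 0.14 (SE, adjusted p = 1.67e-05) and 1.22 ± 0.15 (SE, adjusted p = 1.86e-04).

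*Eno2*, the neuronal enolase, was at 6.06, 5.69 and 4.97 cpm in the control libraries, 16.1, 13.1 and 10.4 cpm in the VLDL-sized libraries and 9.26, 10.2 and 8.03 cpm in the CHYL-sized libraries, with rises of 1.22 ± 0.17 (SE, adjusted p = 3.52e-04) and 0.71 ± 0.18 (SE, adjusted p = 0.0162). Smaller rises were found for *Narf* (0.81 and 0.66), *Plod2*, a collagen lysyl hydroxylase (0.70 and 0.56), and *Ier3*, an immediate early gene (0.73 and 0.68). The 3 that fell were *Zfp395*, *Pdp2* and *Epas1*. *Zfp395* was at 16.9, 17.1 and 16.7 cpm in the control libraries, 6.75, 8.40 and 7.14 cpm in the VLDL-sized libraries and 9.08, 8.01 and 8.98 cpm in the CHYL-sized libraries, with differences of -1.19 ± 0.10 (SE, adjusted p = 8.08e-06) and -0.96 ± 0.092 (SE, adjusted p = 4.21e-05). *Pdp2*, a phosphatase that reactivates pyruvate dehydrogenase and so opposes the kinases above, was at 39.9, 40.8 and 46.9 cpm in the control libraries, 24.01, 26.95 and 26.03 cpm in the VLDL-sized libraries and 26.05, 26.9 and 28.8 cpm in the CHYL-sized libraries. Its treated libraries were clearly lower, with differences of -0.73 ± 0.080 (SE, adjusted p = 6.21e-05) and -0.64 ± 0.079 (SE, adjusted p = 2.17e-04). *Epas1*, which encodes the hypoxia-inducible factor subunit HIF2A, was at 119, 119 and 96.03 cpm in the control libraries, 74.9, 74.6 and 54.2 cpm in the VLDL-sized libraries and 76.1, 74.8 and 52.7 cpm in the CHYL-sized libraries. Replicate 3 was the lowest in each group, and every treated library lay below every control, with differences of -0.72 ± 0.16 (SE, adjusted p = 0.00488) and -0.73 ± 0.16 (SE, adjusted p = 0.00686). *Pdk4*, a pyruvate dehydrogenase kinase that fatty acids induce in many tissues, had at most 1 count in a library and was not tested.

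**Figure D5:**
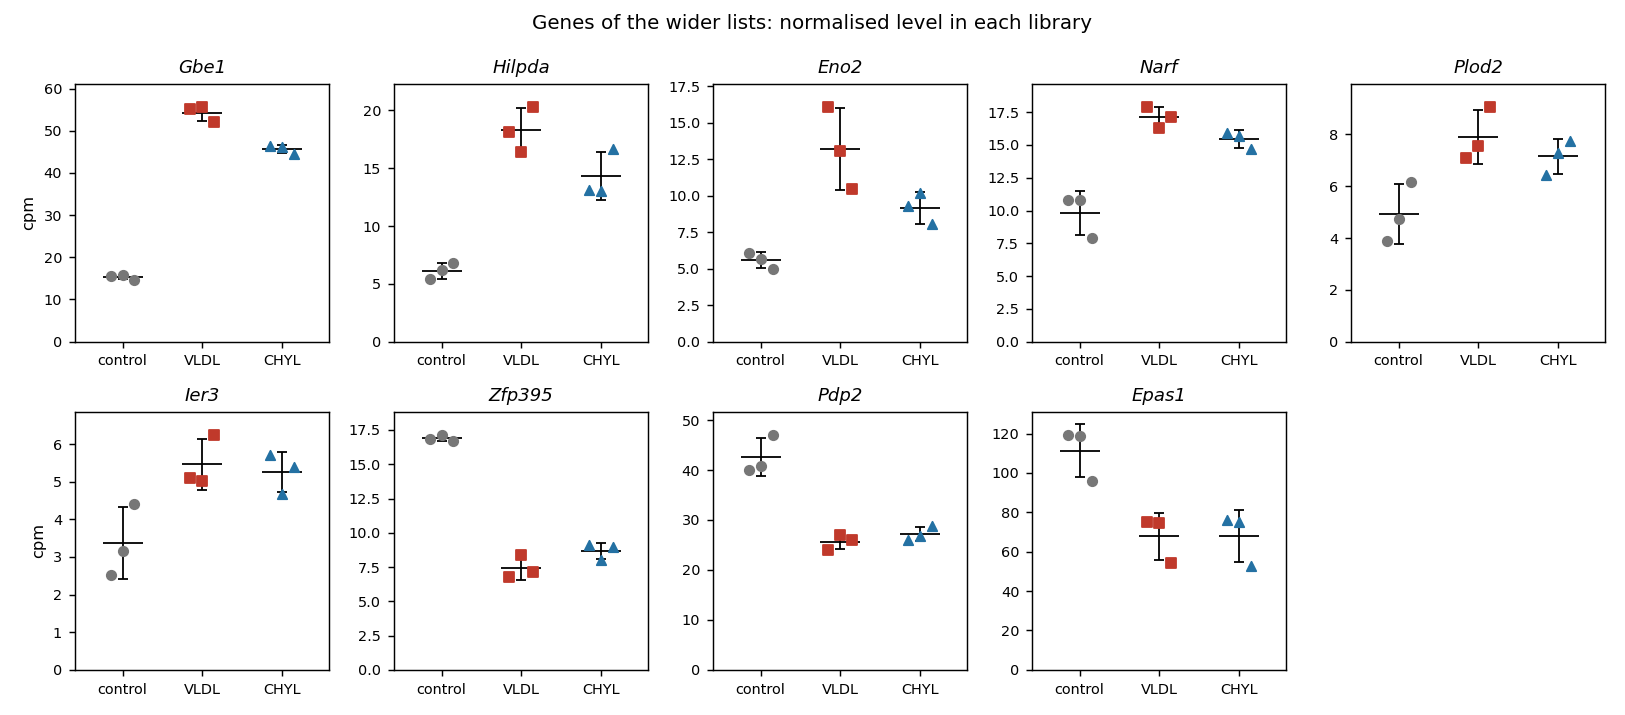
Normalised level in cpm (linear axis from 0) of 9 genes from the wider lists that passed in both comparisons, per library, with the group mean and SD (n = 3) in black. *Gbe1* shows tight groups, with means of 15.3, 54.3 and 45.7 cpm, while *Zfp395*, *Pdp2* and *Epas1* lie lower in every treated library.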

How the data were processed

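Total RNA of RAW264.7 cells was sequenced at paired ends on the BGISEQ-500 in 3 groups of 3 libraries. The authors quantified transcripts with Salmon 0.14.1 against GENCODE annotation of GRCm38.p6, summed them to genes and deposited estimated counts per gene, here treated as not normalised. The methods mention scaling by transcript length and library size, which the deposited values do not show: 58.3% of values above 10 were exactly whole numbers and 75.1% lay within 0.01 of one. Totals of 22393893 to 22856792 counts per library limit precision mainly for *Vegfa*, *Ankrd37*, *Ldhb* and the second *Aldoa* locus.

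A gene was kept where its count passed 10 in 3 or more libraries (12637 genes). The counts were scaled by TMM (edgeR 4.0.16) and tested with limma-voom (limma 3.58.1, R 4.3.3) in a model of all 9 libraries without a block. P-values were adjusted by Benjamini-Hochberg over all genes, and a gene was called at an adjusted p below 0.05. Levels are cpm of the TMM-scaled library, divided for comparisons between genes by the kb of merged exons in GENCODE. Isoenzyme shares were compared by exact permutation (scipy 1.17.1). Promoter windows came from RefSeq tables of GRCm38.p6, in which *Ero1l* is listed as *Ero1a*.

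Replicate numbers are shared by the labels only as numbers. Deviations from the group mean correlated between same-numbered VLDL-sized and control libraries at 0.14, 0.13 and 0.29, each over the limit of 0.1 set for pairing, so blocked values stand beside VLDL-sized results whose call they change. For CHYL-sized and control libraries the correlations were 0.12, 0.068 and 0.34, and for VLDL-sized and CHYL-sized libraries 0.029, 0.12 and 0.36, so that in each case 1 pair fell short of the limit. A blocked value is still given for the CHYL-sized difference of *Pfkp*, and the other CHYL-sized calls added by the block are listed below. Replicates 1 and 2 also correlated across numbers. Control replicate 1 gave 0.12 with VLDL-sized and 0.16 with CHYL-sized replicate 2, though control replicate 2 gave 0.012 with VLDL-sized replicate 1. Replicate 3 correlated negatively with replicates 1 and 2 throughout. The values thus set replicate 3 apart and do not show that replicates 1 and 2 are paired by number.

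All 39 members are described, and those called are given in every library. Genes of the wider lists are named where they passed in both comparisons with a log2 fold change beyond 0.5 in size, along with *Hilpda* and *Pdk4*, and 1 gene that met this rule is not reported here. The members and lists were chosen with earlier results of these data known. The alternatives were library size or upper-quartile scaling, DESeq2 1.42.0, limma-trend (prior count 2), the quasi-likelihood test of edgeR, no filter, a filter at 50 counts, the compared groups alone, the replicate block and leaving out libraries. For shares the alternatives were undivided counts and the longest transcript.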

Additional observations from a re-analysis of the deposited data

How the results depend on the processing

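No called difference of a member changed sign under any of the 19 alternatives. In VLDL-sized against control 16 of 21 calls were kept throughout, the exceptions being *Slc2a6*, *Ndrg1*, *Vegfa*, *Eno1* and *Pfkm*. In CHYL-sized against control 12 of 16 were kept, the exceptions being *Pfkfb3*, *Hk2*, *Eno1* and *Egln1*. Values that were called in neither fit changed sign 25, 29 and 44 times in the 3 comparisons, of which 7, 7 and 6 came from scaling by library size alone.

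With 1 library or all replicate 3 libraries left out, the members called numbered 17 to 26 in VLDL-sized against control, 12 to 22 in CHYL-sized against control and 0 to 3 in VLDL-sized against CHYL-sized, where the 3 were *Ero1l*, *Pfkp* and *Ndrg1* without replicate 3. In VLDL-sized against control, *Slc2a6* lost its call without control replicate 3 or any 1 of replicates 1 and 2 of either particle, *Ndrg1* without control replicate 1 or 3 or VLDL-sized replicate 1 or 2, *Vegfa* without control replicate 1 or 3 or VLDL-sized replicate 1 or 3, *Eno1* without control replicate 1 or 2 or VLDL-sized replicate 3 and *Pfkm* without control replicate 1. In CHYL-sized against control, *Hk2* lost it without any 1 control or CHYL-sized library or VLDL-sized replicate 2, *Pfkfb3* without any 1 library other than control replicate 3, and *Egln1* and *Eno1* each without control replicate 1 or 2 or CHYL-sized replicate 2 or 3. The 17 came without control replicate 1. The 12 came without control replicate 1, CHYL-sized replicate 2 or CHYL-sized replicate 3. Over all genes the calls in these fits numbered 3482 to 5380, 2320 to 4182 and 0 to 257.

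With the replicate number as a block the members called numbered 25, 23 and 2 (6058, 4949 and 147 of all genes), the 2 being *Ero1l* and *Pfkp*, both higher after VLDL-sized particles. In CHYL-sized against control the block added *Slc2a6*, *Gpi1*, *Pfkm*, *Pfkp*, *Aldoc*, *Pdk1* and *Pdk3*. It ended no call of the unblocked fit.

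The isoenzyme shares depend on the length chosen, and 3 libraries against 3 cannot pass their test. The summed enzyme share has no length in it, so the length alternatives do not apply. At 4 to 19 counts, *Vegfa* is limited by depth.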

Other observations

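Because *Gbe1* changed so strongly, other genes of glycogen turnover were looked up after its values had been seen, and their levels are given without a test. *Ugp2*, which makes the activated glucose used for glycogen, was at 84.2, 86.97 and 81.5 cpm in the control libraries, 123, 136 and 117 cpm in the VLDL-sized libraries and 123, 119 and 119 cpm in the CHYL-sized libraries. All treated libraries were well above the controls. *Gys1*, the glycogen synthase outside the liver, was at 38.9, 38.9 and 38.5 cpm in the control libraries, 49.9, 49.97 and 51.9 cpm in the VLDL-sized libraries and 47.8, 47.5 and 50.9 cpm in the CHYL-sized libraries. It was higher in every treated library, by a smaller margin. The lysosomal glucosidase *Gaa* was at 88.2, 87.1 and 83.9 cpm in the control libraries, 109, 102 and 98.2 cpm in the VLDL-sized libraries and 101, 101 and 92.02 cpm in the CHYL-sized libraries, again without overlap between treated and control libraries.

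*Gyg*, *Pygb*, *Pygl* and *Stbd1* overlapped between treated and control libraries. Of all genes 47.4% did not overlap between VLDL-sized and control libraries, and 41.7% between CHYL-sized and control libraries. The lack of overlap in *Ugp2*, *Gys1* and *Gaa* is thus not particular to glycogen genes. The glycogen primer *Gyg* had means of 79.0, 80.8 and 81.5 cpm in control, VLDL-sized and CHYL-sized libraries. The phosphorylase *Pygb* had means of 116, 99.4 and 100.1 cpm, with overlap. *Pygl* and *Stbd1* were low, with means of 1.99 to 2.36 and 7.19 to 8.84 cpm.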
